A study of Mus musculus with 22 samples.

Results

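Urokinase and tissue-type plasminogen activator are serine proteases that cut plasminogen into plasmin, the protease that dissolves fibrin and opens the extracellular matrix. The urokinase receptor is a lipid-anchored protein that holds urokinase at the cell surface. Serpins of this system are suicide inhibitors: the protease attacks the serpin, stays bound to it, and the complex is taken up by receptors of the LDL receptor family. In squamous carcinomas urokinase and its receptor are known from the invasive edge and the stroma next to it. The genes described here are the activators Plau (urokinase) and Plat (tissue-type activator), the receptor gene Plaur, the inhibitor gene Serpine2 (protease nexin-1) and Serpinf1, which encodes PEDF, a secreted serpin that inhibits no protease. They were taken by symbol, matched to their mouse Ensembl gene IDs, and are 5 of the 56748 gene IDs listed for each library. All 5 passed the filter on low counts, so none is missing from the tests.

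The RNA came from 22 primary tumours of the cheek lining of mice, a model of head and neck squamous carcinoma. Every animal carried Krt5CreER-T2/+, Trp53fl/fl and 2 copies of Rosa26LSL-PIK3CA(H1047R), so the tamoxifen-inducible Cre was driven by the promoter of Krt5, a keratin of basal keratinocytes, and both genotypes lacked floxed Trp53 and gained activated PIK3CA in the cells where Cre worked. Keap1-deleted tumours also carried Keap1fl/fl. KEAP1 marks the transcription factor NRF2 for degradation. All tumours were started by injection of 4-hydroxytamoxifen, and the BAP tumours also received benzo[a]pyrene, a carcinogen of tobacco smoke. There were 5 Keap1-deleted BAP, 5 Keap1-deleted untreated, 6 Keap1-wildtype BAP and 6 Keap1-wildtype untreated tumours, where untreated means 4-hydroxytamoxifen alone. The animals' age is not given in the sources used here. The labels do not say that each tumour came from its own animal, so p-values measure the spread between these tumours.

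Library totals lay between 29235010 and 39862777 counts. Levels are CPM, which sets each count against the library total after TMM, a trimmed-mean normalisation. Differences are log2 fold changes with standard errors (SE) from edgeR, where a gene passed at an adjusted p under 0.05 over 19202 genes. Keap1 had 29.8, 65.6, 9.45, 32.2 and 15.0 CPM in libraries labelled Keap1-deleted BAP 1 to 5 and 22.2 to 36.4 CPM in Keap1-deleted untreated tumours, against 52.3 to 64.6 CPM in Keap1-wildtype BAP and 45.8 to 78.9 CPM in Keap1-wildtype untreated tumours. The library labelled Keap1-deleted BAP 2 was thus in the wildtype range; gene-level counts also take in exons outside any deleted stretch. Summed basal keratinocyte markers (10 genes, among them Krt5 and Krt14) ranged over 81.0 to 1626 CPM in Keap1-deleted BAP, 2168 to 27718 CPM in Keap1-deleted untreated, 27054 to 62875 CPM in Keap1-wildtype BAP and 1148 to 47249 CPM in Keap1-wildtype untreated tumours. The lowest of the last group was library 6, which stood apart from the other 5. Summed fibroblast markers (10 genes) ranged over 12749 to 42878, 3570 to 75798, 1024 to 2398 and 561 to 36926 CPM in the same order of groups, and summed macrophage markers (8 genes) over 1740 to 3734, 371 to 1547, 89.1 to 212 and 79.5 to 3680 CPM. Every gene of these 3 lists had counts in each group. In bulk RNA, fewer cells of a type and less RNA per cell cannot be told apart.

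Serpine2 passed in other comparisons than Plat, Plaur and Serpinf1 did, and Plau passed in none. In untreated tumours 1 of the 5 members passed with Keap1 deletion, Serpine2, which was higher, while 0.292% of all genes passed in either direction and 0.214% passed as higher. In BAP tumours 3 passed as higher with Keap1 deletion, namely Plat, Plaur and Serpinf1, and in that comparison 40.3% of all genes passed and 20.3% passed as higher, so that 3 of 5 stands against a background in which calls were common. Within Keap1-deleted tumours BAP went with a lower level of Serpine2 alone among the members (6.1% of all genes passed, 5.16% as lower). Within Keap1-wildtype tumours edgeR passed 0 members and 0% of all genes. There, 1 member and 2622 genes (13.7%) had an unadjusted p under 0.05, and the DESeq2 test passed 1 member and 892 genes and limma-voom 0 of each.

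**Figure D1:**
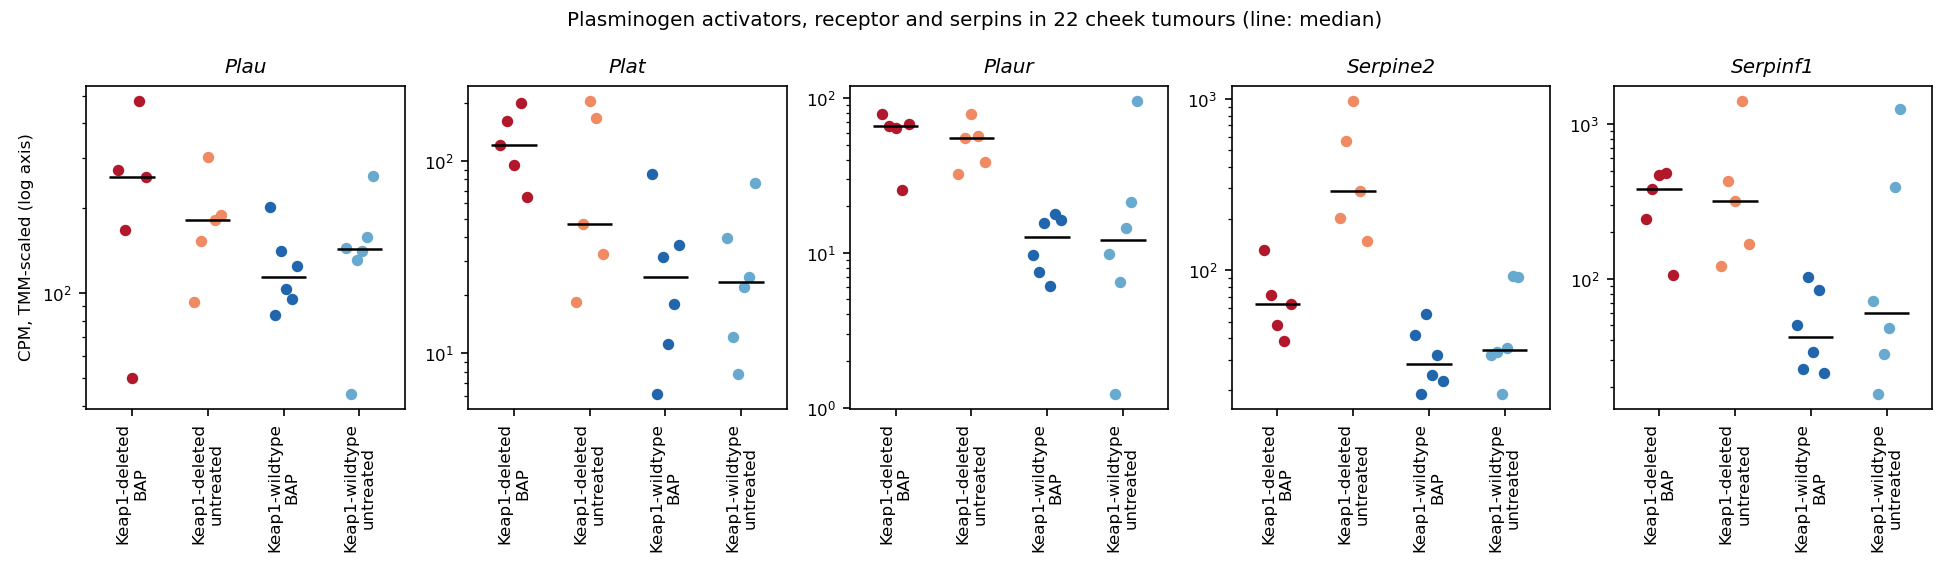
CPM of each gene (log axis) in 22 tumours, 1 point per library and a line at the group median, with the 4 groups along the horizontal axis. Serpine2 lies between 148 and 978 CPM in Keap1-deleted untreated tumours, above every other library, while Plaur lies at 25.4 CPM or more in both Keap1-deleted groups and at 21.4 CPM or less in all Keap1-wildtype tumours but 1.

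The promoter bases just before the RefSeq start sites are shown for Plaur and Serpine2, the receptor and the inhibitor, whose calls held with each library left out. The Serpinf1 call held too, and its window, which held no match to the motifs below, is not shown. They are the 250 bases before the RefSeq start on GRCm38.p6, 5′ to 3′ on the gene's strand. Such windows were given for 3 of the 5 members, Plaur at chr7:24462233-24462482 (plus strand), Serpine2 at chr1:79858666-79858915 (minus strand) and Serpinf1 at chr11:75422624-75422873 (minus strand). The Serpine2 window lies inside the gene's GENCODE span, whose 5′ end is at 79861180, so it is not upstream of that annotated end. The Serpinf1 window overlaps the 5′ end of its GENCODE span, at 75422701. Capitals mark matches on either strand to the AP-1 element TGANTCA, the core of the antioxidant response element TGANNNNGC, which NRF2 is known to bind, and the GC box GGGCGG.
Plaur: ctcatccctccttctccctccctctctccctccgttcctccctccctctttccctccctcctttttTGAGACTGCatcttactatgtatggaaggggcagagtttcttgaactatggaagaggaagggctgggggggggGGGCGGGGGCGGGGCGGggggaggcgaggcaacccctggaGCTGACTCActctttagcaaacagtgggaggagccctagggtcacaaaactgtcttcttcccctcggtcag
Serpine2: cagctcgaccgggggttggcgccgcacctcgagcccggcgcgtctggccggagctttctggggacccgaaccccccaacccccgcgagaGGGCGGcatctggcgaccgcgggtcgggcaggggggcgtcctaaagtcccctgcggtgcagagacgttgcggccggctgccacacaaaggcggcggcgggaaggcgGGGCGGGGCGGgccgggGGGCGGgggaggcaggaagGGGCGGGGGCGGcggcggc
The Plaur window held 1 AP-1 element, 2 antioxidant response element cores and 3 GC boxes. The second core, read on the opposite strand, overlaps the AP-1 element, so the run of capitals nearest the start is both. The Serpine2 window held 6 GC boxes and no match to the other motifs, and the Serpinf1 window held no match to any of the 3. Of 32851 promoter windows of this length, 6.75% held the AP-1 element, 35.2% the response element core and 32.7% the GC box. A match describes letters and not a bound site.

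Plau (ENSMUSG00000021822, chromosome 14, 20836660 to 20843385, plus strand, protein coding, GENCODE M21 on GRCm38) encodes urokinase, the activator that works mainly on cells and in the matrix. It was the steadiest member across the groups. Keap1-deleted BAP tumours 1 to 5 had 272, 167, 50.01, 479.8 and 257 CPM, and Keap1-deleted untreated tumours 1 to 5 had 93.2, 153, 302, 182 and 189.7 CPM. Keap1-wildtype BAP tumours had a lowest, median and highest of 83.9, 114 and 201 CPM, and Keap1-wildtype untreated tumours of 43.9, 143 and 259 CPM. All 4 groups overlapped, and the widest spread was among Keap1-deleted BAP tumours, which held both the highest library of the series and nearly the lowest. The log2 fold change with Keap1 deletion was 0.97 (SE 0.43, edgeR adjusted p = 0.0778) in BAP tumours and 0.33 (SE 0.43, adjusted p = 0.705) in untreated tumours, and neither passed. Without Keap1-deleted BAP 3, the library at 50.01 CPM, the BAP difference was 1.23 (adjusted p = 0.0164) and passed. It was 1.68 (adjusted p = 0.00738) among titles without a final R, and -0.87 (adjusted p = 0.636) among the 3 BAP libraries whose titles end in R, a suffix the labels do not explain. BAP minus untreated was 0.41 (SE 0.45) in Keap1-deleted and -0.23 (SE 0.41) in Keap1-wildtype tumours, neither of which passed (edgeR adjusted p = 0.671 and 0.852).

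Plat (ENSMUSG00000031538, chromosome 8, 22757727 to 22782844, plus strand, protein coding) encodes tissue-type activator, which is most active when bound to fibrin. Its level was 128 ± 53.4 CPM in Keap1-deleted BAP tumours (SD, n = 5), against 31.5 ± 29.1 CPM in Keap1-wildtype BAP tumours (SD, n = 6). The libraries of Keap1-deleted BAP tumours had 121, 162, 94.6, 199.7 and 65.2 CPM, while Keap1-wildtype BAP tumours had a lowest, median and highest of 6.12, 24.7 and 85.9 CPM. A single Keap1-wildtype library reached into the range of the Keap1-deleted group. The Plat log2 fold change was 2.03 (SE 0.69, edgeR adjusted p = 0.0240). It did not pass without Keap1-wildtype BAP 4 (1.85, adjusted p = 0.0510) or Keap1-deleted BAP 4 (1.81, adjusted p = 0.0574) or with no low-count filter (adjusted p = 0.0553). Among titles ending in R, with Keap1-wildtype BAP 1 as the lone wildtype library, it was 0.60 and did not pass.

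In untreated tumours Plat was split within the Keap1-deleted group. Libraries 1 to 5 had 18.3, 46.9, 205, 168 and 32.8 CPM, against a lowest, median and highest of 7.81, 23.4 and 77.0 CPM in Keap1-wildtype untreated tumours. Libraries 3 and 4 lay above every wildtype library and the other 3 lay among them. A log2 fold change of 1.62 (SE 0.68) did not pass (edgeR adjusted p = 0.227). Without Keap1-wildtype untreated 6, the library at 77.0 CPM, it was 2.15 (adjusted p = 0.0440), in a fit where 14.4% of all genes passed. Plat did not pass for BAP in either genotype, with 0.45 (SE 0.71) in Keap1-deleted and 0.04 (SE 0.64) in Keap1-wildtype tumours (edgeR adjusted p = 0.783 and 0.986).

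Plaur (ENSMUSG00000046223, chromosome 7, 24462484 to 24475968, plus strand, protein coding) encodes the urokinase receptor. In BAP tumours its call held in more of the alternative fits than those of Plat and Serpinf1. It rose with Keap1 deletion to 60.6 ± 20.5 CPM in Keap1-deleted BAP tumours (SD, n = 5), against 12.2 ± 5.05 CPM in Keap1-wildtype BAP tumours (SD, n = 6), a 4.97-fold ratio of means. Libraries of Keap1-deleted BAP tumours had 78.7, 66.2, 63.9, 25.4 and 68.7 CPM, and Keap1-wildtype BAP tumours had a lowest, median and highest of 6.07, 12.6 and 17.9 CPM. The groups did not overlap, as was so for 13.8% of all genes in the higher direction. The log2 fold change was 2.31 (SE 0.67, edgeR adjusted p = 0.00973) and stayed between 2.18 and 2.51 with each library left out in turn, at adjusted p between 0.00976 and 0.0233. Among titles without a final R it was 2.25 (adjusted p = 0.0134), and among titles ending in R, 2 libraries against 1, it was 2.77 (adjusted p = 0.405).

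Untreated tumours gave a similar ordering for Plaur apart from 1 library. Keap1-deleted untreated tumours had 32.3, 55.5, 79.4, 56.8 and 38.9 CPM, and Keap1-wildtype untreated tumours had 9.83, 1.22, 6.50, 14.6, 21.4 and 96.6 CPM. The first 5 wildtype libraries were below every Keap1-deleted library, and the last, Keap1-wildtype untreated 6, was the highest Plaur value of the series. That library also held the lowest keratinocyte and the highest macrophage marker sums of its group (1148 and 3680 CPM), and the part of this in the Plaur level was not tested. With it, the log2 fold change was 1.07 (SE 0.65, edgeR adjusted p = 0.390). Without it, the value was 2.30 (adjusted p = 0.00860). Its interaction, the Keap1 effect under BAP less that without BAP, was 1.24 (SE 0.92, edgeR adjusted p = 0.411). BAP minus untreated was 0.20 (SE 0.68, adjusted p = 0.911) in Keap1-deleted and -1.04 (SE 0.63, adjusted p = 0.490) in Keap1-wildtype tumours, and the wildtype value was 0.19 without library 6.

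Serpine2 (ENSMUSG00000026249, chromosome 1, 79794197 to 79861180, minus strand, protein coding) encodes protease nexin-1, which inhibits urokinase, tissue-type activator, plasmin and thrombin and is held by heparan sulfate on cells. It rose with Keap1 deletion in untreated tumours, to 437 ± 343 CPM in Keap1-deleted untreated tumours (SD, n = 5), against 50.5 ± 32.7 CPM in Keap1-wildtype untreated tumours (SD, n = 6), an 8.65-fold ratio of means. Keap1-deleted untreated tumours 1 to 5 had 202, 567, 978, 292 and 148 CPM, and Keap1-wildtype untreated tumours 1 to 6 had 31.8, 33.1, 18.8, 35.1, 92.9 and 91.4 CPM. The groups did not overlap, as was so for 1.23% of all genes in the higher direction. The log2 fold change was 3.11 (SE 0.51, edgeR adjusted p = 0.00756), between 2.58 and 3.38 with each library left out in turn (adjusted p between 0.00159 and 0.0332). A two-sided exact permutation test on log2 CPM gave an unadjusted p of 0.00216, the smallest that its 462 arrangements allow. The value was much the same with only these 2 groups in the fit, 3.12, but did not pass there (adjusted p = 0.152), where edgeR passed 0 genes. Among titles without a final R it was 3.04 (adjusted p = 0.476) and among those with it, 1 library against 4, 1.76 (adjusted p = 1), in fits that passed 0 and 2 of all genes.

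BAP tumours with Keap1 deletion did not hold the high Serpine2 level. It fell to 70.5 ± 36.6 CPM in Keap1-deleted BAP tumours (SD, n = 5), against the 437 ± 343 CPM of Keap1-deleted untreated tumours. The Keap1-deleted BAP libraries had 132, 71.6, 47.8, 38.3 and 63.1 CPM, all below the lowest Keap1-deleted untreated library, a separation in that direction that 3.54% of all genes showed. The BAP difference on the log2 scale was -2.63 (SE 0.54, edgeR adjusted p = 0.0160), and from -2.99 to -2.10 with each library left out in turn (adjusted p between 0.0120 and 0.0482). It was -2.72 (adjusted p = 0.0857) among titles without a final R and -1.31 (adjusted p = 0.776) among the 3 titles with it. In Keap1-wildtype tumours BAP minus untreated was -0.64 (SE 0.47, edgeR adjusted p = 0.585), with a lowest, median and highest of 18.9, 28.2 and 55.3 CPM in Keap1-wildtype BAP tumours.

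Keap1 deletion in BAP tumours gave Serpine2 a log2 fold change of 1.12 (SE 0.49, edgeR adjusted p = 0.0721), and 3 of the 5 Keap1-deleted BAP libraries lay above all Keap1-wildtype BAP libraries. That value passed with the DESeq2 test (1.16, adjusted p = 0.0423), with only these groups in the fit (1.18, adjusted p = 0.0147) and when scaling used only library totals (1.54). The interaction, which takes the Keap1 effect of untreated tumours from that of BAP tumours, was -1.996 (SE 0.69, unadjusted p = 0.00909, edgeR adjusted p = 0.0755), in a comparison where 6.94% of all genes passed. That share was not steady, with 1333 genes passing when all libraries were used and 1 to 2309 with a library left out. By edgeR 0 members passed the interaction, with 0.64 for Plau, 0.40 for Plat and 1.95 for Serpinf1 (SE 0.61, 0.96 and 1.24), and only Serpine2 of the 5 had an unadjusted p under 0.05. The Serpinf1 value was 0.52 without Keap1-wildtype untreated 6. With the DESeq2 test (-1.96, adjusted p = 0.0347) and with limma-voom (-2.18, adjusted p = 0.0433) Serpine2 alone passed it.

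**Figure D2:**
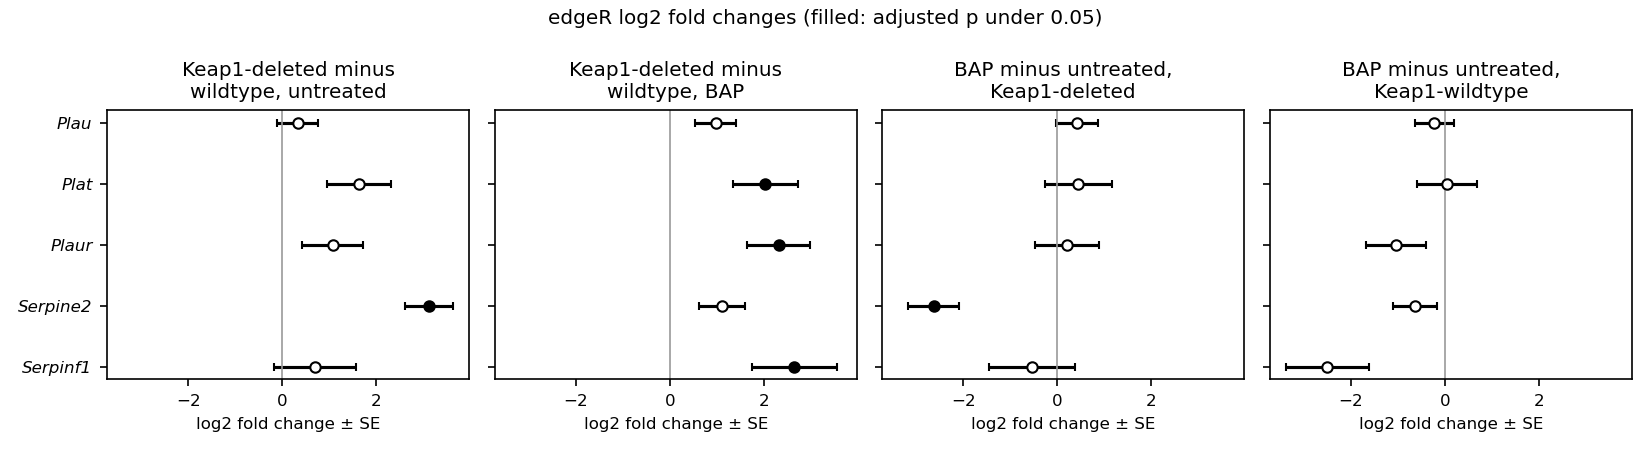
Log2 fold changes of the 5 genes with their SE from edgeR, 1 panel per comparison, filled where the adjusted p is under 0.05. Serpine2 is filled at 3.11 for Keap1 deletion in untreated tumours and at -2.63 for BAP in Keap1-deleted tumours, and Plat, Plaur and Serpinf1 are filled between 2.03 and 2.65 for Keap1 deletion in BAP tumours.

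Serpinf1 (ENSMUSG00000000753, chromosome 11, 75409769 to 75422701, minus strand, protein coding) encodes PEDF, which is known for restraining blood vessel growth and binds collagen. It rose with Keap1 deletion in BAP tumours, to 335 ± 159.7 CPM in Keap1-deleted BAP tumours (SD, n = 5), against 53.5 ± 32.7 CPM in Keap1-wildtype BAP tumours (SD, n = 6), a 6.26-fold ratio of means. The Keap1-deleted BAP libraries had 244, 379, 467, 482 and 105 CPM, and the Keap1-wildtype BAP libraries had a lowest, median and highest of 24.4, 41.8 and 102 CPM. The groups did not overlap, as was so for 13.8% of all genes in the higher direction. Even so, the lowest Keap1-deleted and the highest Keap1-wildtype library were next to each other. On the log2 scale the difference was 2.65 (SE 0.90, edgeR adjusted p = 0.0248), between 2.48 and 2.94 with each library left out in turn. It did not pass with no low-count filter (adjusted p = 0.0597), among titles without a final R (2.41, adjusted p = 0.0680) or among those with it (3.10, adjusted p = 0.484).

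In untreated tumours Serpinf1 spread widely in both genotypes. Keap1-deleted untreated tumours 1 to 5 had 121, 426, 316, 1413 and 167 CPM, and Keap1-wildtype untreated tumours 1 to 6 had 72.1, 17.96, 32.5, 47.7, 389 and 1253 CPM. Wildtype libraries 1 to 4 were below all Keap1-deleted ones, and libraries 5 and 6 were within their range. The log2 fold change was 0.69 (SE 0.87, edgeR adjusted p = 0.695), and it ran from -0.23 without Keap1-deleted untreated 4 to 2.13 without Keap1-wildtype untreated 6 (adjusted p = 0.938 and 0.0708). BAP minus untreated in Keap1-wildtype tumours was -2.50 (SE 0.88, unadjusted p = 0.00978, edgeR adjusted p = 0.203). That value passed with the DESeq2 test (-2.54, adjusted p = 0.0323) and was -1.06 in edgeR without Keap1-wildtype untreated 6. In Keap1-deleted tumours BAP minus untreated was -0.54 (SE 0.91, adjusted p = 0.797).

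Ordered by mean log2 CPM, Keap1-deleted BAP tumours were highest for Plau, Plat and Plaur, and Keap1-deleted untreated tumours for Serpine2 and Serpinf1. Keap1-wildtype BAP tumours were lowest for each of the 5. Gaps between neighbours in these orders mostly did not exceed the larger SD. The exceptions were Serpine2 and Plaur. For Serpine2 the gap between untreated and BAP tumours with Keap1 deletion was 2.42 on the log2 scale, against SDs of 1.11 and 0.68. For Plaur the gap between Keap1-deleted untreated and Keap1-wildtype untreated tumours was 2.10, just above the larger of their SDs of 0.51 and 2.05. These Plaur groups overlapped, and their edgeR difference of 1.07 did not pass (adjusted p = 0.390).

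Per length, in TPM, a transcript measure built from the deposited length, Serpinf1 had the highest mean of the members in both Keap1-deleted groups, with 517 TPM in BAP and 673 TPM in untreated tumours. Its mean of 382 TPM in Keap1-wildtype untreated tumours rested on library 6, at 1694 TPM. Without that library Serpinf1 and Plau averaged 119 and 118.5 TPM there, and over all 6 libraries their medians were 51.8 and 122 TPM. Plau had the highest mean in Keap1-wildtype BAP tumours with 109 TPM, against 47.8 TPM for Serpinf1. Plau exceeded Plat in every group, by mean levels of 361 and 73.6 TPM in Keap1-deleted BAP tumours and of 109 and 10.2 TPM in Keap1-wildtype BAP tumours. Serpine2 was at 28.6, 178, 8.20 and 16.3 TPM in Keap1-deleted BAP, Keap1-deleted untreated, Keap1-wildtype BAP and Keap1-wildtype untreated tumours. Levels of Serpine2 and Plat against the other genes depend on the length used. The deposited lengths are 8287 bases for Serpine2 and 6241 bases for Plat, while their longest coding transcripts have 2210 and 2525 bases. Rescaled to the longest coding transcript of each gene, Serpine2 would reach 668 in Keap1-deleted untreated tumours and Serpinf1 867. These are not full TPM values, because the sum over each library was left as it was.

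Activator and inhibitor mRNA within a library are set against each other by the log2 ratio of CPM, as a description with no test. Plau over Serpine2 averaged 1.60 ± 1.34 in Keap1-deleted BAP, -1.004 ± 0.90 in Keap1-deleted untreated, 1.98 ± 0.43 in Keap1-wildtype BAP and 1.61 ± 0.90 in Keap1-wildtype untreated tumours (SD). It was above 0 in 5 of 5, 1 of 5, 6 of 6 and 6 of 6 libraries. Plat over Serpine2 averaged 0.89 ± 1.01, -2.45 ± 1.14, -0.44 ± 1.06 and -0.87 ± 0.83 in the same order of groups, above 0 in 4 of 5, 0 of 5, 2 of 6 and 1 of 6 libraries. Keap1-deleted untreated tumours thus held the lowest mean ratios of both kinds, and Keap1-deleted BAP tumours the highest mean of Plat over Serpine2. Plau over Plat averaged 0.71 ± 1.14, 1.45 ± 1.07, 2.42 ± 0.93 and 2.48 ± 0.88, so the mean excess of urokinase over tissue-type counts was smaller in the Keap1-deleted groups, within overlapping spreads. Ratios between genes on CPM carry their difference in length, which is the same in every library.

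**Figure D3:**
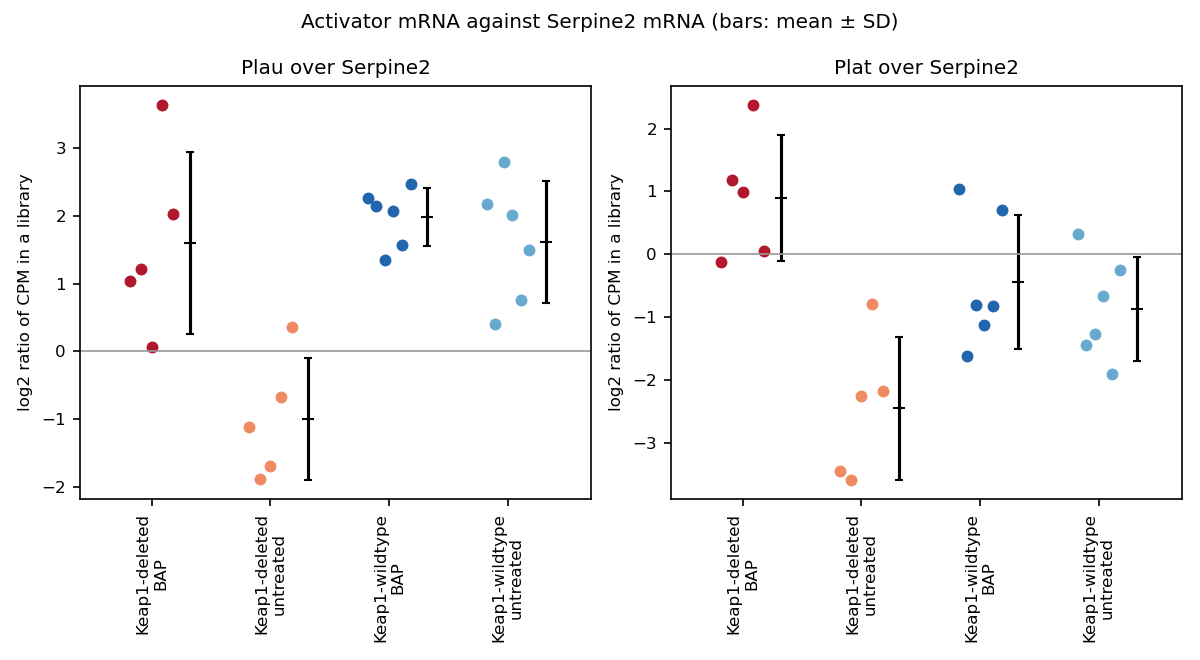
Log2 ratio of Plau (left) and of Plat (right) to Serpine2 in CPM, 1 point per library with mean ± SD beside each group. Keap1-deleted untreated tumours average -1.004 and -2.45, below the 3 other groups in both panels.

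Marker sums of other cell types moved with several members. In BAP tumours the fibroblast and macrophage sums given above did not overlap between genotypes, being higher in all Keap1-deleted BAP libraries, and the keratinocyte sum was lower in all of them, as Plaur and Serpinf1 were higher in all of them. Nerve and Schwann cell markers (8 genes) did not overlap either, summing to 61.4 to 183 CPM in Keap1-deleted BAP and 41.5 to 58.2 CPM in Keap1-wildtype BAP tumours. Skeletal muscle markers (10 genes) averaged 688 and 25.7 CPM and neutrophil markers (8 genes) 206 and 2969 CPM in Keap1-deleted BAP and Keap1-wildtype BAP tumours, with overlapping ranges. Of all these lists' genes, only the neutrophil marker Elane was at 0 throughout a group, Keap1-wildtype BAP. Over the 22 libraries, Pearson's r of log2 CPM with the log2 fibroblast sum was 0.91 for Serpinf1, 0.85 for Plaur, 0.77 for Plat and 0.62 for Plau and for Serpine2. With group means subtracted it was 0.86 for Serpinf1, 0.73 for Plaur, 0.61 for Plat, 0.57 for Plau and 0.56 for Serpine2. With the macrophage sum, r over the 22 libraries was 0.86 for Plaur, 0.84 for Serpinf1, 0.79 for Plat, 0.55 for Serpine2 and 0.53 for Plau. With group means subtracted these were 0.83, 0.83, 0.60, 0.67 and 0.47. With the nerve and Schwann cell sum, r was 0.77 for Plaur, 0.76 for Serpinf1 and 0.69 for Serpine2. With group means subtracted these were 0.51, 0.57 and 0.50. With the basal keratinocyte sum, r was -0.73 for Plat, -0.68 for Serpinf1, -0.60 for Plaur, -0.50 for Plau and -0.29 for Serpine2. With group means subtracted these were -0.51, -0.61, -0.30, -0.44 and -0.33. These libraries share their tissue makeup and fall into clusters, so r is a description. The part of these markers in the results for Plat, Plaur and Serpinf1 was not tested.

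For Serpine2, r over the 22 libraries was highest with the endothelial sum, 0.75, and was 0.43 with group means subtracted. With the macrophage sum these were 0.55 and 0.67. The endothelial r of Plaur, Serpinf1, Plat and Plau was 0.71, 0.67, 0.66 and 0.32. With group means subtracted these were 0.58, 0.50, 0.63 and 0.19, higher than for Serpine2 in all but Plau. Single libraries differed from the order of their fibroblast sums. Keap1-deleted untreated 1 and 5, with fibroblast sums of 3570 and 9343 CPM and keratinocyte sums of 24439 and 27718 CPM, held 202 and 148 CPM of Serpine2. Keap1-wildtype untreated 5 and 6, with higher fibroblast sums of 31087 and 36926 CPM, held 92.9 and 91.4 CPM. Keap1-deleted BAP tumours, with fibroblast sums from 12749 CPM up, held at most 132 CPM. Endothelial markers (8 genes, all with counts in each group) summed to 103 to 313 CPM in Keap1-deleted BAP, 224 to 499.8 CPM in Keap1-deleted untreated, 59.6 to 231 CPM in Keap1-wildtype BAP and 81.8 to 300.2 CPM in Keap1-wildtype untreated tumours. The part of all these markers in the Serpine2 level was not tested.

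**Figure D4:**
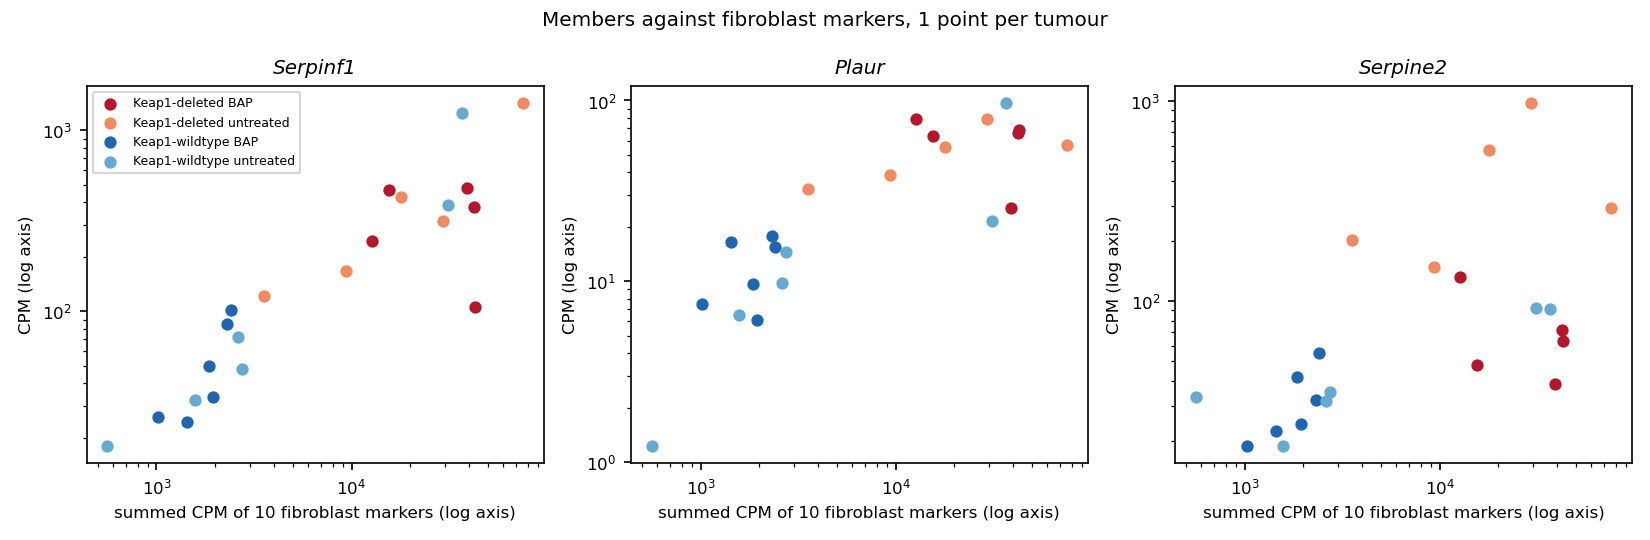
CPM of Serpinf1, Plaur and Serpine2 against the summed CPM of 10 fibroblast markers, both on log axes, 1 point per tumour coloured by group. Serpinf1 rises along the fibroblast axis over the 22 tumours together (r = 0.91 on log2 values). It does not within Keap1-deleted BAP tumours, where the highest fibroblast sum (42878 CPM) goes with the lowest Serpinf1 level (105 CPM). For Serpine2 the 5 Keap1-deleted untreated tumours are the highest points, 1 of them at a fibroblast sum that no other tumour reaches (75798 CPM).

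Members varied together to different degrees. With group means subtracted, Pearson's r of log2 CPM over 22 libraries was highest for Plaur with Serpinf1 (0.72) and lowest for Plau with Serpinf1 (0.37), given as a description. Of 13355 genes compared, those most like Plau over the 22 libraries were Scly (0.81), Slc17a9 (0.80), Stambpl1 (0.78), Creb3l1 and Hao1 (0.77 each). Those most like Plat were Phactr1 (0.92), Eml1 and Rftn2 (0.91 each), Hectd2 and Wwtr1 (0.90 each). Plaur was closest to Calm3, Apobr, Parvb, Prr5 and Ptger2 (0.94 each). Serpine2 was close to Sod3 (0.88), Gpm6b (0.87), Zfp366 and Gsr (0.85 each), and with group means subtracted Gpm6b stayed at 0.88 while Gsr was at 0.62. Serpinf1 was closest to Adamts2 (0.96), Itm2c (0.95), Chpf, Mxra8 and Mmp14 (0.94 each).

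The rest of the plasminogen system was followed through 47 other genes, of which 37 were tested. This list was chosen with earlier results of these data known, so its shares are a description. Plasminogen itself, Plg, had 5 counts in the 22 libraries together and was not tested. In BAP tumours 19 of the 37 passed as higher and 7 as lower with Keap1 deletion, which is 51.4% and 18.9%, beside the 20.3% and 20% of all genes. The median log2 fold change of the 37 was 0.94, beside -0.0012 for all genes. When scaling used only library totals the median of all genes moved to 0.44 and the share of calls that were higher to 73.4%, against 50.3% with TMM.

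Among plasminogen receptors S100a10, the light chain of the annexin A2 complex, rose to 637 ± 241 CPM in Keap1-deleted BAP tumours (SD, n = 5), against 165 ± 38.5 CPM in Keap1-wildtype BAP tumours (SD, n = 6) (log2 fold change 1.95, SE 0.33, edgeR adjusted p = 0.000397). Its partner Anxa2 gave 0.04 (adjusted p = 0.919). Eno1, the glycolytic enolase that also binds plasminogen, was lower by the test (-1.47, adjusted p = 0.00258). Among other activating proteases the epithelial membrane proteases St14 (-4.32, SE 0.76, edgeR adjusted p = 0.000470) and Prss8 (-4.28, SE 1.04, adjusted p = 0.00321) fell and Ctsb, cathepsin B, rose (1.11, adjusted p = 0.0110).

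Of the other inhibitors tested, 3 of 6 rose and 1 fell in BAP tumours, beside 20.3% and 20% of all genes. Serping1, the C1 inhibitor, rose by 1.75 (SE 0.58, edgeR adjusted p = 0.0208), Serpini1, a neuronal inhibitor of tissue-type activator, by 2.16 (SE 0.70, adjusted p = 0.0191) and Serpinb6a by 1.54 (SE 0.37, adjusted p = 0.00314). Serpinb2, plasminogen activator inhibitor type 2 of keratinocytes and macrophages, fell to 11.5 ± 6.89 CPM in Keap1-deleted BAP tumours (SD, n = 5), against 234 ± 215 CPM in Keap1-wildtype BAP tumours (SD, n = 6) (-4.35, SE 0.94, adjusted p = 0.00148).

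The list of clearance receptors and coreceptors gave 10 higher and 1 lower of 12 in BAP tumours, where 20.3% of all genes passed as higher and 20% as lower. The 10 take in Vtn, which encodes a secreted protein and not a receptor, and Lrp2, both at low levels. Their means were 2.03 and 1.48 CPM in Keap1-deleted BAP and 0.52 and 0.067 CPM in Keap1-wildtype BAP tumours. Lrp1, which takes up serpin and protease complexes, rose by 1.503 (SE 0.43, edgeR adjusted p = 0.00929) and Mrc2, the collagen receptor that binds the urokinase receptor, by 1.78 (SE 0.66, adjusted p = 0.0373). The integrin genes Itga5 (2.90, SE 0.61) and Itgam (3.59, SE 0.66) rose as well, with edgeR adjusted p of 0.00125 and 0.000547. Of the PEDF receptor candidates Plxdc1 rose (2.63, adjusted p = 0.0143) and Plxdc2 fell (-0.99, adjusted p = 0.0168), while Pnpla2, the lipase that binds PEDF, gave 0.52 (adjusted p = 0.246). Among plasmin substrates and growth factors cut by these proteases Fn1 (4.35, SE 1.08), Hgf (4.14, SE 1.10) and Mmp3 (4.35, SE 1.14) rose and Mst1 (-4.18, SE 0.75) fell, with edgeR adjusted p from 0.000491 to 0.00579. The keratinocyte, fibroblast and macrophage sums moved with these genes in BAP tumours, and their part was not tested.

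**Figure D5:**
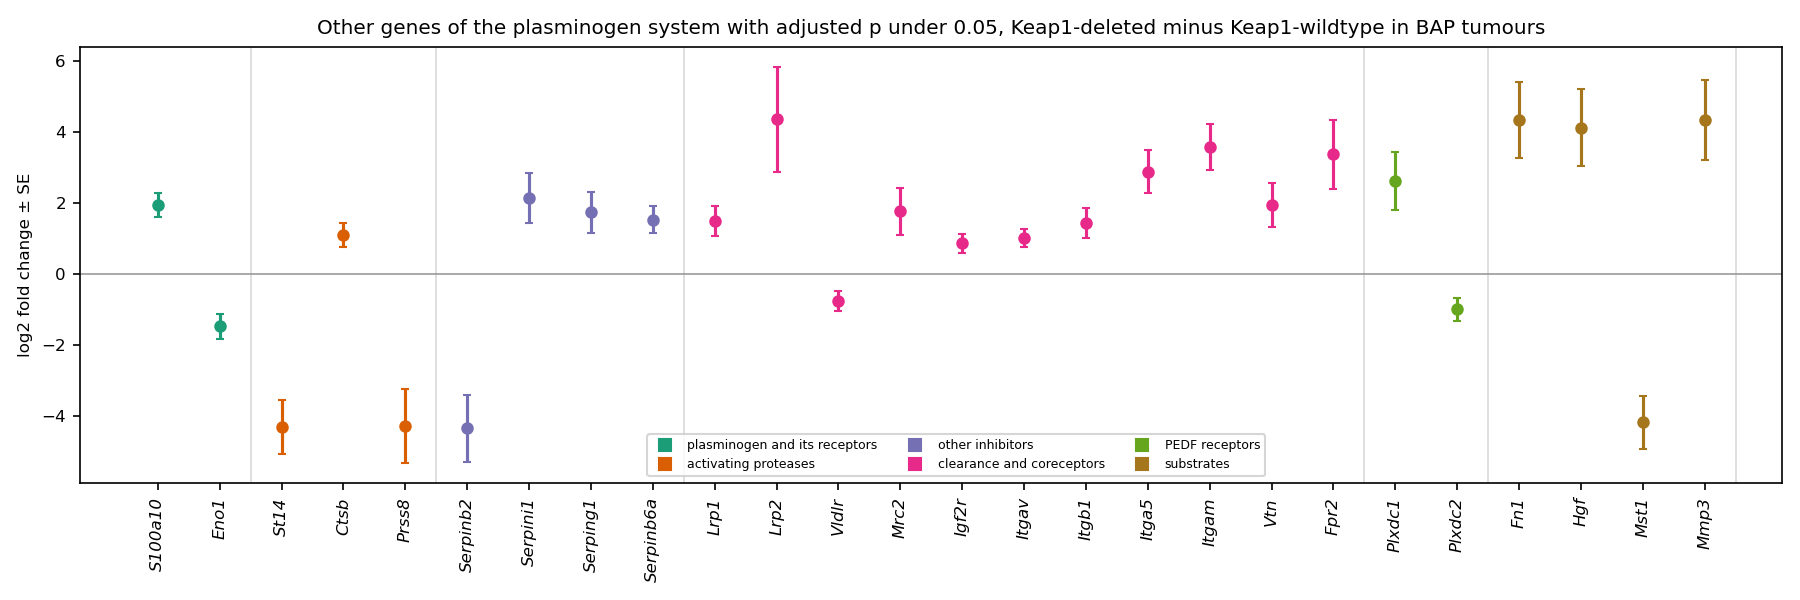
Log2 fold change with SE of those genes of the plasminogen system whose edgeR adjusted p was under 0.05, Keap1-deleted minus Keap1-wildtype in BAP tumours, coloured by role. There are 19 points above 0 and 7 below, the lowest of them Serpinb2 at -4.35, St14 at -4.32 and Prss8 at -4.28.

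In untreated tumours edgeR passed 0 of the 37 with Keap1 deletion, with 8 at an unadjusted p under 0.05, as had 17.6% of all genes. The DESeq2 test passed 2 as higher and 1 as lower (4.92% of all genes passed), and limma-voom 9 and 2 (9.83% of all genes). Without Keap1-wildtype untreated 6 edgeR passed 14 as higher and 1 as lower, in a fit where 14.4% of all genes passed. Within Keap1-deleted tumours BAP went with higher S100a10 (1.62, SE 0.35, edgeR adjusted p = 0.0168), while 0.943% of all genes passed as higher, and with lower St14 (-3.46, adjusted p = 0.0163), Mst1 (-3.07, adjusted p = 0.0221) and Plxdc2 (-1.22, adjusted p = 0.0335). Within Keap1-wildtype tumours edgeR passed 0 of the 37, with 6 at an unadjusted p under 0.05 (13.7% of all genes), the DESeq2 test 2 as lower and limma-voom 0. The interaction passed for S100a10 (2.21, SE 0.47, edgeR adjusted p = 0.0292) and St14 (-4.13, SE 0.95, adjusted p = 0.0296), against 2.47% of all genes that passed as higher and 4.47% as lower.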

How the data were processed

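Total RNA of pulverised frozen tumours was sequenced as Illumina paired-end libraries, per the labels' protocols. The authors deposited, per gene and library, RSEM expected counts and an effective length, per the file headers. The expected counts were whole numbers (tolerance 1e-09) and were used as counts; the deposited length served only for TPM. Of 56748 gene IDs, 52073 had a symbol in the GENCODE M21 annotation of GRCm38. edgeR 4.0.16 in R 4.3.3 fitted all 22 libraries with a term per group, TMM scaling, the filterByExpr filter (minimum count 10) and the robust quasi-likelihood F test, with Benjamini-Hochberg adjustment over 19202 genes. The SE is the absolute log2 fold change divided by the square root of F. The procedure was tested on simulated counts. Alternatives used DESeq2 1.42.0, limma 3.58.1 (voom with sample weights), other scalings and filters, subsets by title suffix and each library left out. Replicates were numbered within a group as names only, and no pair of libraries agreed within sampling noise (lowest chi-square per degree of freedom 96.5 over 231 pairs). Named genes are the 5 members, genes of the plasminogen system list that passed, with Plg, Serpinb2, Anxa2, S100a10, Lrp1, Mrc2, Plgrkt and Pnpla2 in any case, and the 5 genes most like each member by Pearson's r; some genes that this rule names are not reported here. The members and gene lists were chosen with earlier results of these data known. Promoter windows come from RefSeq. Counting did not state the use of strand, and no other gene ID overlaps a member.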

Additional observations from a re-analysis of the deposited data

Results flagged for a closer look

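Plaur in Keap1-deleted BAP tumours had 1 library far from the others: library 4 had 25.4 CPM, while the other 4 had 63.9 to 78.7 CPM. Its gap to the nearest library, as a share of the group's range on log2 CPM, exceeded Dixon's 95% critical value of 0.71 for 5 samples. Of 20 combinations of gene and group examined, chance gives such a gap in about 1 of 20. The same library had the highest Plau and Serpinf1 levels of its group, 479.8 and 482 CPM.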

How the results depend on the processing

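No paired analysis was possible because the labels give tumour names with no replicate number shared between groups. Over the 25 log2 differences (5 genes in 5 comparisons), 313 of 330 values with 1 library left out kept direction and side of the threshold, 11 reversed, 4 passed newly and 2 no longer passed. Of 290 values under other settings, 251 kept both, 15 reversed, 13 passed newly and 11 no longer passed. The permutation values among these were judged by their unadjusted exact p. The calls for Serpine2 in untreated tumours, for Plaur and Serpinf1 in BAP tumours and for Serpine2 with BAP in Keap1-deleted tumours held with each library left out. The cause was not tested for any change below.

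For Keap1 deletion in BAP tumours, library totals gave Plau 1.44 and Serpine2 1.54, and the DESeq2 test 1.03 and 1.16, all passing. With only the groups compared Serpine2 gave 1.18 and passed. The permutation test gave Serpine2 1.08 with an exact p of 0.0195, which is unadjusted and so is not a call. Without the low-count filter Plat (2.03) and Serpinf1 (2.65) did not pass. Titles without a final R gave Plau 1.68, passing, and Serpinf1 2.41, not passing. Titles with it gave Plau -0.87, Plat 0.60, Plaur 2.77 and Serpinf1 3.10, none passing.

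For Keap1 deletion in untreated tumours, Serpine2 did not pass with only the groups compared (3.12), with titles without a final R (3.04) or with it (1.76). Plaur passed with limma-voom (2.06) and without both Keap1-wildtype untreated 6 and the library labelled Keap1-deleted BAP 2 (2.30). The permutation test gave Plaur 2.10 with an exact p of 0.0498, also unadjusted and not a call. Titles without a final R reversed Plau (-0.10) and Serpinf1 (-0.19).

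For BAP in Keap1-deleted tumours, Serpine2 did not pass with titles without a final R (-2.72) or with it (-1.31), and titles ending in R reversed Plau (-0.80) and Serpinf1 (1.34). For BAP in Keap1-wildtype tumours the DESeq2 test passed Serpinf1 (-2.54). Plat reversed with library totals (-0.17), titles without a final R (-1.31) and the permutation scale (-0.063), Plau with titles ending in R (0.75), and Plau (0.014) and Plaur (0.19) without the 2 doubted libraries. For the interaction Serpine2 passed with the DESeq2 test (-1.96) and limma-voom (-2.18). Titles ending in R reversed Plau (-1.55) and Plat (-0.052), and leaving out the 2 doubted libraries Plat (-0.22) and Plaur (-0.018).

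With 1 library left out, values ran as follows. In untreated tumours Keap1 deletion gave Plat 1.12 to 2.15, Plaur 0.82 to 2.30 and Serpinf1 -0.23 to 2.13. In BAP tumours it gave Plau 0.58 to 1.23, Plat 1.81 to 2.64 and Serpine2 0.76 to 1.33, the last passing without Keap1-wildtype BAP 3. BAP gave Serpinf1 -0.79 to 0.38 in Keap1-deleted tumours, and Plau -0.42 to 0.012, Plat -0.57 to 0.57 and Plaur -1.29 to 0.19 in Keap1-wildtype tumours. The interaction ran from -0.12 to 1.01 for Plat and 0.52 to 2.87 for Serpinf1, which was 0.47 without the 2 doubted libraries.

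Of the 5 members, Keap1 deletion in untreated tumours called 1 (0.292% of all genes), or 1 to 3 with a library left out. It called 3 without Keap1-wildtype untreated 6, where 14.4% of all genes passed. Keap1 deletion called 2 with limma-voom (9.83%) and without the 2 doubted libraries (12.9%). It called 0 with only the groups compared (0%) and with titles without a final R (0%). In BAP tumours it called 3 (40.3% of all genes), but 5 with the DESeq2 test (45%) or library totals (42.9%), 1 without the filter (19.7%) and 0 with titles ending in R (2.08%). BAP in Keap1-deleted tumours called 1 (6.1% of all genes) and, with titles without a final R, 0 (0.053%). The plasminogen list gave 14 higher and 1 lower in untreated tumours without Keap1-wildtype untreated 6, with or without the library labelled Keap1-deleted BAP 2, a setting chosen after seeing the data, and 1 to 2 lower in the interaction.

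Calls over all genes depended on the tool and on single libraries. In untreated tumours edgeR called 56 for Keap1 deletion, the DESeq2 test 944, limma-voom 1888, no filter 36, the suffix as a covariate 28 and only the groups compared 0, with 16 to 2731 when a library was left out. For BAP in Keap1-deleted tumours it called 1172, the DESeq2 test 2112, limma-voom 3237, no filter 398, only the groups compared 352 and titles without a final R 11, with 181 to 1597 when a library was left out. For the interaction it called 1333, the DESeq2 test 3008, no filter 111, the suffix as a covariate 3021 and titles without a final R 680. The interaction had 1 call without Keap1-deleted untreated 1, 2 or 5, and 2 without Keap1-deleted BAP 4. With library totals the share of these calls that were higher moved to 88.1% in untreated tumours (73.2% with TMM), to 26.7% for BAP in Keap1-deleted tumours (15.4%) and to 62.2% in the interaction (35.6%).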
